A study of Mus musculus with 4 samples.

Results

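The colony-stimulating factor family described here comprises 9 mouse genes, chosen by their gene name: the receptors Csf1r, Csf2ra, Csf2rb, Csf2rb2, Csf3r, Flt3 and Kit, and the ligands Csf1 and Il34. All 9 were among the 23337 gene names of the deposited tables, each on a single row. RNA was sequenced from 2 libraries of YFP+ and 2 libraries of YFP- cells labelled as liver macrophages (Kupffer cells, which reside along the hepatic sinusoids). They were sorted from male and female Lyz2cre-RosaYFP mice aged 6 to 8 weeks. All 4 libraries therefore come from mice that carry Cre recombinase under the Lyz2 locus, a lysozyme gene of myeloid cells, and a YFP cassette at the Rosa locus. YFP marks any cell that has expressed Cre or descends from one that has, so YFP- cells carry the same alleles but have not switched YFP on. In each group the title of 1 library begins with M and that of the other with FM, with no meaning given. Whether the libraries come from separate animals is not stated either, so the spread between libraries of a group may be technical. The p-values on the deposited TPM rest on a trend of that spread fitted over all genes, not on each gene's own spread.

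Colony-stimulating factors are secreted proteins that keep myeloid cells alive and drive their growth and maturation. CSF1 and IL-34 share little sequence, yet both bind CSF1R, a receptor tyrosine kinase on which most tissue macrophages, Kupffer cells and microglia included, depend for survival. GM-CSF signals through an alpha chain (Csf2ra) and the common beta chain (Csf2rb), which also serves IL-5 and IL-3, and mice carry in addition a second beta chain for IL-3 alone (Csf2rb2). G-CSF acts on the neutrophil lineage through Csf3r, FLT3 supports progenitors and dendritic cells, and KIT supports progenitors and mast cells.

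The regions upstream of 3 genes are shown because these genes stood at different places relative to all other genes in the comparison below: Csf2ra near the top, Csf3r and the ligand gene Csf1 near the bottom. Each runs from 250 bases before to 50 after a RefSeq start in GRCm38.p6, is written 5′ to 3′ on the gene's strand, and carries capitals where the letters GAGGAA, or TTCCTC on the other strand, occur. These letters are the core bound by PU.1, a transcription factor of myeloid cells.
Csf2ra, chr19:61228369-61228668, minus strand: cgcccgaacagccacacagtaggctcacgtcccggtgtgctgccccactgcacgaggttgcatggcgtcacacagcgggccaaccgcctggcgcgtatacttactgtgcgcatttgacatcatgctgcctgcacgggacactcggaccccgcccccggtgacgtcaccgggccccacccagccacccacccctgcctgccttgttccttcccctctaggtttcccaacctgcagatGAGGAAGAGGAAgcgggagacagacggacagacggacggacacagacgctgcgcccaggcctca
Csf3r, chr4:126024409-126024708, plus strand: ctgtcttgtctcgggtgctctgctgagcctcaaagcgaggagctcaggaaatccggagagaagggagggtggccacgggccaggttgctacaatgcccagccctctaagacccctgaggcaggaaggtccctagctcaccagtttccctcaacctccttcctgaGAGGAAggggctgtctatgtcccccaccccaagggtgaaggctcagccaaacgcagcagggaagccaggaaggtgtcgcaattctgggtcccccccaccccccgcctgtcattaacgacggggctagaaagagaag
Csf1, chr3:107760420-107760719, minus strand: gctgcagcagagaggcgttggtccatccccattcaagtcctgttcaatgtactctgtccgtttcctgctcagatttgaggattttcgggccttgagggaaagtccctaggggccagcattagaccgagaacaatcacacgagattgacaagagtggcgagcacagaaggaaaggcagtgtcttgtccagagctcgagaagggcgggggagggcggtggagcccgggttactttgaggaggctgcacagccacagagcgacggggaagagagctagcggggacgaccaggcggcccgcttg
On either strand, these letters occurred 2 times in the Csf2ra window, 2 times in that of Csf2rb2, 1 time in those of Csf3r and Kit, and not in those of Csf1 and Flt3. Of 32851 windows of the same 300 bases in the table, 28.3% hold them on either strand. The letters TGTGGT, or ACCACA on the other strand, the core bound by RUNX1, occurred in none of these 6 genes' windows, against 16.8% of all windows. Csf1r was left out of these counts by choice, and Csf2rb and Il34 had no RefSeq window to use. A match in letters does not show binding, and letters missing from a window say nothing about the factor.

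The libraries differed in depth and in make-up. At 1 FPKM (a fragment count divided by gene length and by sequencing depth), mean read coverage was 4.81 and 2.60 in the YFP+ M and FM libraries, and 9.19 and 2.59 in the YFP- M and FM libraries. Levels are in TPM, a length-corrected share of all transcripts that sums to 1000000 in each library, so a gene's level depends on what else that library holds. Summed over 10 Kupffer cell markers, of which 6 were called higher and 0 lower, TPM was 42287 and 39957 in YFP+ libraries, against 6978 and 12737 in YFP- libraries. Summed over 10 microglia markers, of which 0 were called higher and 10 lower, it was 1021 and 75.5 in YFP+ libraries, against 17678 and 16425 in YFP- libraries. The libraries labelled as YFP- liver macrophages thus held more TPM of the microglia list than of the Kupffer cell list. No marker of either list was at 0 in any library. Of 12251 tested genes, limma with Benjamini-Hochberg adjustment at 0.05 called 39.5% lower and 0.522% higher in YFP+ libraries, 40% in all, and the median change over these genes was -1.73 on the log2(TPM + 1) scale. In bulk RNA, fewer cells of a type and less RNA per cell cannot be told apart.

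Of the 9 genes, 5 were called lower in YFP+ libraries (the ligands Csf1 and Il34 and the receptors Csf3r, Flt3 and Kit), 0 were called higher, and Csf1r and the 3 chains of the GM-CSF, IL-3 and IL-5 receptors did not pass. Of all tested genes 39.5% were called lower and 0.522% higher, the shares to set beside these counts and those of every list below. All 9 passed the filter of at least 1 TPM in at least 2 libraries. Il34 and Kit did so only through the YFP- libraries, as both YFP+ values were under 1 TPM. For these genes the filter fixed the direction, so their calls do not test it. The median change of the 9 genes was -1.33, beside -1.73 for all tested genes. In 6 genes both YFP+ libraries lay below both YFP- libraries, as did 79.7% of all tested genes. In 1 gene, Csf2ra, both YFP+ libraries lay above both YFP- libraries, as did 2.5% of all tested genes. At an unadjusted p under 0.05 the counts were the same, 5 lower and 0 higher. Every share of all tested genes called rests on adjusted p, and none was taken at an unadjusted p. Permuting 4 libraries exactly, two-sided, gives no p under 0.333, so every call rests on the limma model.

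**Figure D1:**
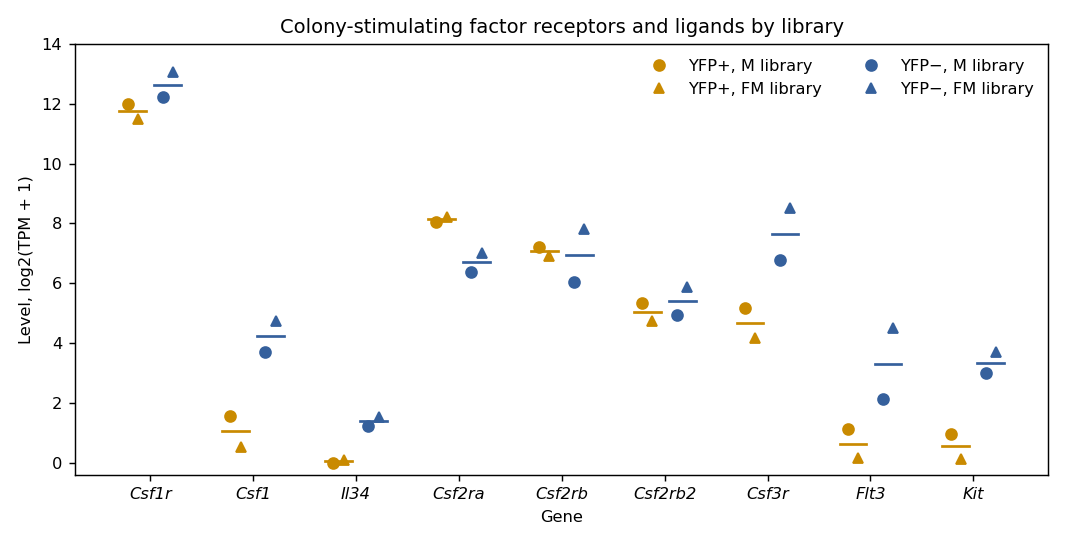
Level of each of the 9 genes in each library, as log2(TPM + 1), with YFP+ libraries in amber left of YFP- libraries in blue, circles for M and triangles for FM libraries, and a bar at the mean of each pair. Csf1r is at the top in all 4 libraries, Csf2ra is the gene whose YFP+ points lie above its YFP- points, and only Csf2rb and Csf2rb2 overlap between the groups.

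Csf1r, which encodes the receptor for CSF1 and IL-34, was the most abundant member in every library. It lies on chromosome 18, 61105572 to 61131139, plus strand, in the files' coordinates (GRCm38, mm10). It had 4086 TPM in the YFP+ M and 2884 TPM in the YFP+ FM library, against 4786 TPM in the YFP- M and 8533 TPM in the YFP- FM library. Both YFP+ libraries were lower than both YFP- libraries, and the gap was narrow between the M and wide between the FM libraries. Among all gene names Csf1r ranked 46 and 93 in YFP+ libraries, and 15 and 3 in YFP- libraries. Its mean was 3485 ± 850.4 TPM in YFP+ and 6659.6 ± 2649.9 TPM in YFP- libraries (SD, n = 2 each).

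The difference in Csf1r did not pass (log2 fold change -0.90, SE 0.60, limma adjusted p = 0.203). It was -0.23 between the M libraries and -1.56 between the FM libraries, and rescaling moved it both ways. It was -1.88 under quantile normalization (adjusted p = 0.155) and -2.22 under cyclic loess (adjusted p = 0.152), but its sign turned under median-ratio scaling (1.41, SE 2.08, adjusted p = 0.654). Without the YFP- M library it passed (-1.31, adjusted p = 0.0160). On the deposited TPM its change lay above that of 80.9% of tested genes and 0.83 above their median, but it lay below the median by quantile normalization (-1.85) and loess (-2.21), so its standing among other genes depends on the scaling. In FPKM the levels of Csf1r were closer together, at 2755 and 2335 in YFP+ libraries, against 2835 and 3690 in YFP- libraries.

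Genes that macrophages of many tissues share were called in both directions. Of 12 pan-macrophage and leukocyte genes 2 were called higher and 1 lower in YFP+ libraries, with a median change of -0.20 beside -1.73 for all genes. Their summed level was 24122 and 21150 TPM in YFP+ libraries, against 20643 and 19283 TPM in YFP- libraries, and none was at 0. Ctss, a lysosomal cysteine protease, had a log2 fold change of -0.15 (adjusted p = 0.830), and Lgmn, the protease legumain, one of -0.01 (adjusted p = 0.986). Fcer1g, the common Fc receptor gamma chain, was higher in YFP+ libraries (1.51, adjusted p = 0.0483), and Laptm5, a lysosomal membrane protein of leukocytes, did not pass (-0.79, adjusted p = 0.304).

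The ligand gene Csf1 was far below its receptor in all libraries. It lies on chromosome 3, 107741048 to 107760469, minus strand, and its upstream sequence is the third of those printed above. Its level was 1.96 and 0.458 TPM in the YFP+ M and FM libraries, against 12.1 and 25.7 TPM in the YFP- M and FM libraries. The YFP+ libraries were both lower than the YFP- libraries, by 6.18-fold between the M and 56.2-fold between the FM libraries. Csf1 was called lower (log2 fold change -3.17, SE 1.04, limma adjusted p = 0.0118), and its change lay above that of 5.77% of tested genes. The call ended with the title start as a block (adjusted p = 0.120) and under quantile (0.166), median-ratio (0.0618) and loess (0.225) scaling. It also ended without the YFP+ FM, YFP- M or YFP- FM library, with changes from -3.69 to -2.66 when a library was left out. The sign stayed the same each time, though of these settings only the scalings could have turned it.

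Stellate cells and endothelium are known sources of CSF1 in liver, and some markers of both were also called lower. Of 5 tested stellate cell and fibroblast markers, of 9 listed, 0 were called higher and 4 lower, beside 0.522% and 39.5% of all tested genes. The 9 listed genes summed to 8.25 and 3.06 TPM in YFP+ libraries, against 76.6 and 122 TPM in YFP- libraries. Lrat and Reln were too low to be tested and were at 0 in the YFP+ FM library. Of 8 tested endothelial markers, of 10 listed, 0 were called higher and 5 lower, namely Cldn5, Emcn, Kdr, Pecam1 and Tek. Clec4g (-0.81, limma adjusted p = 0.454), Stab2 (-0.03, adjusted p = 0.978) and Wnt2 (-1.18, adjusted p = 0.224) did not pass. The 10 listed genes had a sum of 209 and 95.3 TPM in YFP+ libraries, against 1013 and 793 TPM in YFP- libraries, with Rspo3 and Wnt9b at 0 in both YFP+ libraries. The part of these cells in the level of Csf1 was not tested.

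Il34, the other CSF1R ligand gene, was the lowest member in every library. It lies on chromosome 8, 110741829 to 110805903, minus strand. It was listed at 0 TPM in the YFP+ M library and at 0.0776 TPM in the YFP+ FM library, against 1.37 and 1.88 TPM in the YFP- M and FM libraries. Mean read coverage of the gene was 0 and 0.163 in YFP+ libraries, against 7.46 and 2.10 in YFP- libraries, so the YFP+ values rest on few or no reads. Il34 was called lower (log2 fold change -1.33, SE 0.31, limma adjusted p = 0.000475), a change above that of 66.3% of tested genes. Under quantile normalization the difference was -0.09 (adjusted p = 0.898), and it did not pass under median-ratio scaling (0.189), loess (0.773) or in a model without the mean trend (0.147). It was not tested without either YFP- library, in FPKM or with a filter at 5 TPM. Il34 passed the filter at 1 TPM only through the YFP- libraries, which fixed its direction.

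Neurons are a known source of IL-34 in brain. Of 4 tested neuron markers, of 8 listed, 0 were called higher and 2 lower, beside 0.522% and 39.5% of all tested genes. These 2 were the calcium-signalling protein Nrgn (-2.70, adjusted p = 0.0245) and the synaptic protein Snap25 (-2.53, adjusted p = 0.000248). The other 2 did not pass: the splicing factor Rbfox3 had 3.57 and 1.73 TPM in YFP+ libraries, against 1.12 and 1.25 TPM in YFP- libraries (0.69, adjusted p = 0.289), and the tubulin Tubb3 had a change of -0.75 (adjusted p = 0.0900). The summed level of the list was 6.17 and 3.23 TPM in YFP+ libraries, against 28.6 and 21.1 TPM in YFP- libraries. Syt1 was at 0 in both YFP+ libraries, and Snap25, Gad1 and Slc17a7 in the YFP+ FM library. Their part in the level of Il34 was not tested.

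Csf2ra, the chain that binds GM-CSF, was the member that stood highest relative to other genes. It lies on chromosome 19, 61224402 to 61228418, minus strand, and its upstream sequence, with 2 adjoining GAGGAA runs, is the first of those printed above. It had 265 and 299.6 TPM in the YFP+ M and FM libraries, against 81.4 and 129.6 TPM in the YFP- M and FM libraries. Both YFP+ libraries lay above both YFP- libraries, by 3.26-fold between the M and 2.31-fold between the FM libraries. Its mean was 282 ± 24.5 TPM in YFP+ and 105 ± 34.1 TPM in YFP- libraries (SD, n = 2 each).

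On the deposited TPM Csf2ra did not pass (log2 fold change 1.45, SE 0.90, limma adjusted p = 0.167). Its change lay 3.18 above the median of all tested genes, and 110 of 12251 genes had a larger one. It was positive under all 14 alternatives, between 1.11 and 3.73. Only FPKM and quantile, median-ratio and loess scaling could have turned this sign, since the groups do not overlap in TPM. The change passed in FPKM (1.98, adjusted p = 0.0457) and under median-ratio scaling (3.73, adjusted p = 0.00742). Under quantile normalization it did not pass (2.35, adjusted p = 0.0675).

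Csf2rb, the beta chain that signals for GM-CSF, IL-3 and IL-5, had 148 and 121 TPM in the YFP+ M and FM libraries, against 65.6 and 227 TPM in the YFP- M and FM libraries. It lies on chromosome 15, 78325990 to 78351001, plus strand. The groups overlapped: YFP+ was the higher of the M libraries and the lower of the FM libraries. Csf2rb did not pass (0.13, SE 0.93, limma adjusted p = 0.909), and its sign turned without the YFP+ M library (-0.02) and without the YFP- M library (-0.76). Under median-ratio scaling it was called higher (2.41, adjusted p = 0.0421).

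Csf2rb2, the IL-3-specific beta chain of mice, lies beside Csf2rb on chromosome 15, 78282510 to 78305603, minus strand. It had 39.9 and 26.0 TPM in the YFP+ M and FM libraries, against 29.5 and 58.4 TPM in the YFP- M and FM libraries. As for Csf2rb, YFP+ was the higher of the M and the lower of the FM libraries. Csf2rb2 did not pass (-0.36, SE 1.05, limma adjusted p = 0.771), with the sign turned under quantile normalization, cyclic loess and median-ratio scaling, in FPKM and without the YFP- FM library. It was called higher under median-ratio scaling (1.88, adjusted p = 0.0457).

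The 2 beta chains are near-identical copies, and how the authors' counting split reads between them is uncertain. The first 120 coding bases are shown to make this visible, with capitals at the 4 positions where they differ.
Csf2rb: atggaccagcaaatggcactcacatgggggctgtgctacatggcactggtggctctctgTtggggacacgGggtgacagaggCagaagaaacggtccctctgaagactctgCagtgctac
Csf2rb2: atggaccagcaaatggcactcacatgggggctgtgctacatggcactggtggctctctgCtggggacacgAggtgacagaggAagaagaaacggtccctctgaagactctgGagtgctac
Over 2631 aligned bases of the longest reading frames in GENCODE M21 (GRCm38), 95.2% were identical, and the longest identical run was 242 bases. Of all 100-base windows of the longest transcripts, 6.96% of those of Csf2rb occur unchanged in Csf2rb2, and 7.20% of those of Csf2rb2 occur unchanged in Csf2rb. Most 100-base stretches thus hold at least 1 difference.

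The beta chains signal through JAK kinases and STAT factors. Of 12 genes of beta chain and STAT signalling, 0 were called higher and 3 lower in YFP+ libraries, with a median change of -1.62 beside -1.73 for all genes. Those called were the STAT feedback inhibitor Socs3, at 32.4 and 31.5 TPM in YFP+ against 125 and 388 TPM in YFP- libraries, and the receptor-associated kinases Jak1 (-2.75, adjusted p = 0.0185) and Jak2 (-3.03, adjusted p = 0.0213). Bhlhe40, a transcription factor induced by GM-CSF, did not pass (-1.31, adjusted p = 0.236), nor did Stat3 (-1.37, adjusted p = 0.244). Of 7 tested monocyte markers, of 8 listed, 0 were called higher and 4 lower, beside 0.522% and 39.5% of all tested genes. Their median change was -2.82, beside -1.73 for all genes. The 8 listed genes summed to 1245 and 2754 TPM in YFP+ libraries, against 1897 and 1230 TPM in YFP- libraries, with none at 0. Plac8 was the largest part of this sum, at 1046 and 2574 TPM in YFP+ against 1094 and 391 TPM in YFP- libraries. It alone had a positive change and did not pass (1.33, adjusted p = 0.120). The part of monocytes in the levels of the 3 chains was not tested.

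Csf3r, the G-CSF receptor, stood next to Csf1r in both YFP- libraries, and below Csf2ra, Csf2rb and Csf2rb2 in both YFP+ libraries. It lies on chromosome 4, 126024659 to 126044975, plus strand, and its upstream sequence is the second of those printed above. Its level was 35.2 and 16.9 TPM in the YFP+ M and FM libraries, against 109.7 and 366 TPM in the YFP- M and FM libraries. Both YFP+ libraries were lower, by 3.11-fold between the M and 21.7-fold between the FM libraries. Csf3r was called lower (log2 fold change -2.99, SE 0.98, limma adjusted p = 0.0122), and its change lay above that of 8.37% of tested genes. The call ended with the title start as a block (adjusted p = 0.0889), under quantile (0.194), median-ratio (0.428) and loess (0.174) scaling, and without the YFP+ FM (0.105), YFP- M (0.271) or YFP- FM library (0.680).

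Neutrophils are the cells best known for Csf3r. Of 11 tested neutrophil markers, of 12 listed, 0 were called higher and 0 lower by limma (0 and 2 at an unadjusted p under 0.05), with a median change of -1.29 beside -1.73 for all genes. Their summed level was 1675 and 7172 TPM in YFP+ libraries, against 2158 and 4407 TPM in YFP- libraries, and none was at 0. Of the 11, 2 had a positive change, S100a9 (0.77) and S100a8 (0.53), the calprotectin subunits, and the other 9 a negative one, such as Retnlg (-1.85, adjusted p = 0.0898) and Ltf (-1.61, adjusted p = 0.145). S100a9 made up much of the sum, with 772 and 4874 TPM in YFP+ libraries, against 815 and 1595 TPM in YFP- libraries. Microglia are also known to express Csf3r in mice, and all 10 microglia markers were called lower. The part of either cell type in the level of Csf3r was not tested.

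Flt3, the receptor of FLT3 ligand, lies on chromosome 5, 147330742 to 147400489, minus strand. It had 1.17 and 0.128 TPM in the YFP+ M and FM libraries, against 3.36 and 21.7 TPM in the YFP- M and FM libraries. Both YFP+ values were lower, and the YFP- FM library stood far above the other 3. With a filter at 5 TPM the gene was not tested. Flt3 was called lower (log2 fold change -2.67, SE 0.79, limma adjusted p = 0.00515), but not with the title start as a block (adjusted p = 0.0634), under quantile (0.3603), median-ratio (0.0875) or loess (0.505) scaling, or without the YFP+ FM (0.0745), YFP- M (0.388) or YFP- FM library (0.680).

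Dendritic cells depend on FLT3. Of 9 dendritic cell markers 0 were called higher and 7 lower, beside 0.522% and 39.5% of all tested genes. Their median change was -2.81, beside -1.73 for all genes. They summed to 207 and 189 TPM in YFP+ libraries, against 253 and 471 TPM in YFP- libraries, with none at 0. Batf3, a transcription factor of cross-presenting dendritic cells, had a log2 fold change of 1.33 (adjusted p = 0.236), and Ccr7, a chemokine receptor of migrating dendritic cells, was lower (-2.54, adjusted p = 0.0339). Their part in the level of Flt3 was not tested.

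Kit, the receptor of stem cell factor, lies on chromosome 5, 75574987 to 75656721, plus strand. It had 0.957 and 0.1002 TPM in the YFP+ M and FM libraries, against 7.07 and 11.9 TPM in the YFP- M and FM libraries. Both YFP+ libraries were lower, by 7.39-fold between the M and 119-fold between the FM libraries. Mean read coverage was 3.10 and 0.211 in YFP+ libraries, against 38.5 and 13.3 in YFP- libraries. Kit was called lower (log2 fold change -2.80, SE 0.77, limma adjusted p = 0.00287), also with the title start as a block (adjusted p = 0.0448) and under median-ratio scaling (-1.55, adjusted p = 0.0342), but not under quantile (-1.02, adjusted p = 0.135) or loess scaling (0.184), or without the YFP+ FM library (0.0504). It was not tested without either YFP- library. Kit passed the filter at 1 TPM only through the YFP- libraries, which fixed its direction.

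Mast cells and progenitors are the blood cells best known for KIT. Of 5 tested mast cell and basophil markers, of 8 listed, 0 were called higher and 3 lower, beside 0.522% and 39.5% of all tested genes. These 3 were the mast cell proteases Tpsb2, Mcpt4 and Cma1. The list summed to 13.5 and 12.3 TPM in YFP+ libraries, against 41.1 and 194 TPM in YFP- libraries. Hdc, the histidine decarboxylase, carried most of this sum in 3 libraries, with 10.4 and 12.1 TPM in YFP+ libraries, against 9.65 and 185 TPM in the YFP- M and FM libraries, and did not pass (-1.87, adjusted p = 0.142). Ms4a2 was at 0 in all 4 libraries, Cpa3 in both YFP+ libraries and the YFP- FM library, Fcer1a in both FM libraries, and Mcpt4, Mcpt8 and Cma1 in the YFP+ FM library. Of 7 tested progenitor markers, of 8 listed, 0 were called higher and 4 lower, with a summed level of 346 and 302 TPM in YFP+ libraries, against 1249 and 631 TPM in YFP- libraries. Gata1 was at 0 in the YFP+ FM library. The median change of the progenitor markers was -1.25, beside -1.73 for all genes. Cd34, which endothelium also expresses, was the most changed of them, at 12.3 and 0.699 TPM in YFP+ libraries, against 248 and 167 TPM in YFP- libraries. Ly6a, the most abundant (-1.20, adjusted p = 0.206), Prtn3 (0.10, adjusted p = 0.938) and Ctsg (-0.74, adjusted p = 0.564) did not pass. The part of mast cells and progenitors in the level of Kit was not tested.

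**Figure D2:**
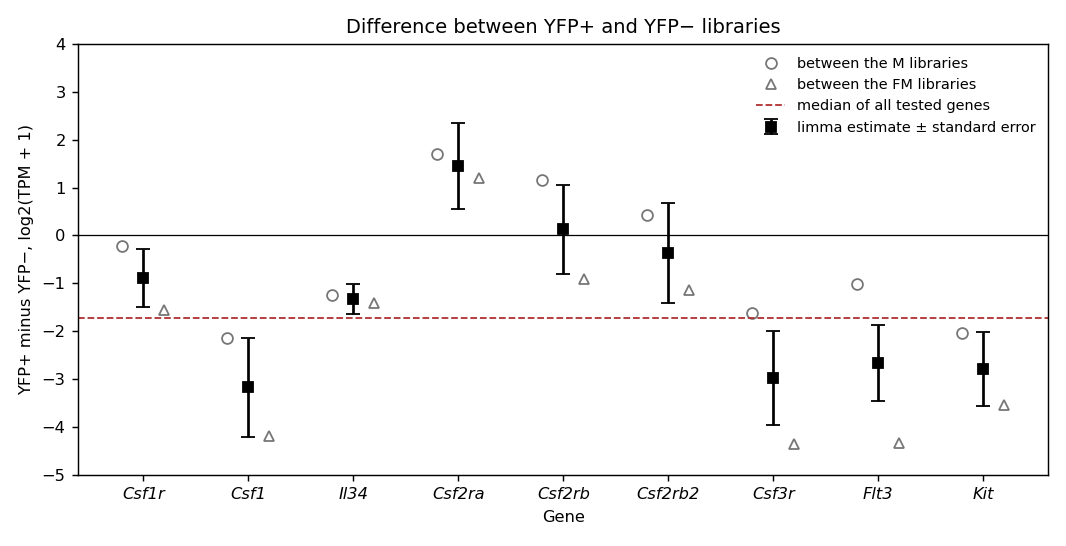
Difference between YFP+ and YFP- libraries for each gene on the log2(TPM + 1) scale, with the limma estimate and its standard error as squares and bars, and the difference of each title start as an open circle (M) or triangle (FM). The dashed line is the median of all tested genes, -1.73. Csf2ra lies furthest above it, while Csf1, Csf3r, Flt3 and Kit lie below it.

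Ratios of genes within a library do not depend on a constant scaling of that library, and relative to Csf1r they were higher in YFP+ libraries for Csf2ra, Csf2rb and Csf2rb2, and lower for Csf3r, Flt3 and Kit. There were 15.4 and 9.62 TPM of Csf1r per TPM of Csf2ra in the YFP+ M and FM libraries, against 58.8 and 65.9 in the YFP- M and FM libraries. For Csf3r the same figure was 116 and 171 in YFP+ libraries, against 43.6 and 23.3 in YFP- libraries. Csf2ra thus stood higher and Csf3r lower relative to Csf1r in both YFP+ libraries than in both YFP- libraries. On the log2 scale, with a pseudocount of 1, the ratio of Csf2ra to Csf1r was -3.60 ± 0.48 in YFP+ and -5.95 ± 0.12 in YFP- libraries (SD, n = 2 each, difference 2.34, exact two-sided permutation p = 0.333, the smallest possible). That of Csf3r to Csf1r was -7.08 ± 0.37 in YFP+ and -4.99 ± 0.63 in YFP- libraries (difference -2.09, exact p = 0.333).

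The ligand to receptor ratio followed the ligand. There were 2084 and 6297 TPM of Csf1r per TPM of Csf1 in the YFP+ M and FM libraries, against 395 and 331 in the YFP- M and FM libraries. The ratio of the 2 GM-CSF receptor chains, Csf2ra over Csf2rb, was 1.80 and 2.48 in YFP+ libraries, against 1.24 and 0.571 in YFP- libraries. The alpha chain thus exceeded the beta chain in both YFP+ libraries and in the YFP- M library, but not in the YFP- FM library. Csf2rb exceeded Csf2rb2 in all 4 libraries, by 3.70-fold and 4.65-fold in YFP+ libraries and by 2.22-fold and 3.88-fold in YFP- libraries.

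**Figure D3:**
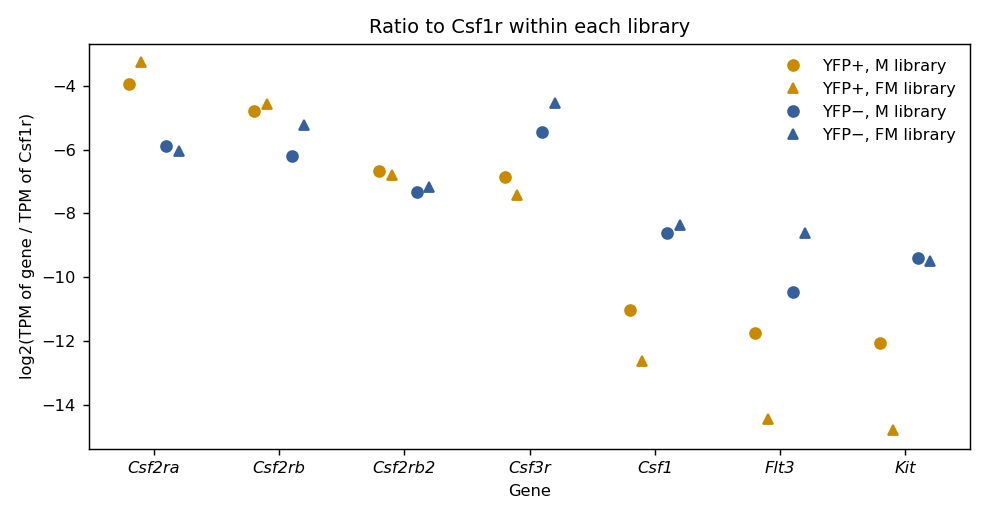
TPM of 7 genes over TPM of Csf1r in the same library, as log2 ratios, with YFP+ libraries in amber left of YFP- libraries in blue, circles for M and triangles for FM libraries. Il34 is left out because it is listed at 0 in a YFP+ library. The YFP+ points lie above the YFP- points for Csf2ra, Csf2rb and Csf2rb2, and below them for Csf3r, Csf1, Flt3 and Kit.

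The order of levels was the same in both YFP+ libraries: Csf1r, Csf2ra, Csf2rb, Csf2rb2, Csf3r, Csf1, Flt3, Kit and Il34. In the YFP- M library it was Csf1r, Csf3r, Csf2ra, Csf2rb, Csf2rb2, Csf1, Kit, Flt3 and Il34, and in the YFP- FM library Csf2rb passed Csf2ra and Flt3 passed Kit. Among YFP+ means, the neighbours Csf2rb2 (32.9 ± 9.85 TPM) and Csf3r (26.1 ± 12.99 TPM) did not differ beyond their spread, nor did Csf1 (1.21 ± 1.06 TPM), Flt3 (0.648 ± 0.736 TPM) and Kit (0.529 ± 0.606 TPM). Among YFP- means, the spreads of Csf3r (238 ± 182 TPM), Csf2rb (146 ± 114 TPM) and Csf2ra (105 ± 34.1 TPM) overlapped, as did those of Csf1 (18.9 ± 9.64 TPM), Flt3 (12.5 ± 12.9 TPM) and Kit (9.48 ± 3.41 TPM), all with SD and n = 2.

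Other ligands and receptors of the family were scarce. Of 10 such genes 5 were tested, of which 0 were called higher and 2 lower, with a median change of -0.97 beside -1.73 for all genes. These 2 were Kitl, the KIT ligand, at 1.10 and 0.109 TPM in YFP+ against 14.9 and 4.72 TPM in YFP- libraries, and Pdgfrb, a related receptor tyrosine kinase of pericytes, at 0.456 and 0.0725 TPM in YFP+ against 2.92 and 6.82 TPM in YFP- libraries. Csf3, which encodes G-CSF, had 7.14 and 8.04 TPM in YFP+ against 0.256 and 2.92 TPM in YFP- libraries and did not pass (1.95, adjusted p = 0.0532). Flt3l, the FLT3 ligand, had 20.1 and 4.86 TPM in YFP+ against 23.3 and 18.4 TPM in YFP- libraries (-0.97, adjusted p = 0.457). Il3 and Il5 were listed at 0 in all 4 libraries, and Csf2, which encodes GM-CSF, in all but the YFP- M library, where it had 1.32 TPM.

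Below CSF1R act adaptors, kinases and phosphatases. Of 20 genes of CSF1R signalling, 1 was called higher and 5 lower in YFP+ libraries, with a median change of -1.52 beside -1.73 for all genes. Tyrobp, the DAP12 adaptor through which CSF1R and other myeloid receptors reach the kinase Syk, had 8701 and 12597 TPM in YFP+ libraries, against 3561 and 1792 TPM in YFP- libraries (2.05, adjusted p = 0.00463). Both YFP+ libraries lay above both YFP- libraries. Among the 5 lower genes were the phosphatase Inpp5d (-3.17), the kinases Pik3cg (-3.25) and Src (-2.29) and the exchange factor Sos1 (-2.07). The phosphatase Ptpn6 (-1.06, adjusted p = 0.258) and the Src-family kinase Lyn (-1.13, adjusted p = 0.250) did not pass.

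Several transcription factors are known to act at these receptor genes. Of 12 such genes 0 were called higher and 1 lower, with a median change of -1.11 beside -1.73 for all genes. PU.1, listed under its older symbol Sfpi1, had 578 and 834 TPM in YFP+ libraries, against 279.7 and 484 TPM in YFP- libraries (0.91, adjusted p = 0.3202). Irf8, which acts with PU.1 in myeloid cells, had 203 and 176 TPM in YFP+ against 284 and 629 TPM in YFP- libraries (-1.16, adjusted p = 0.240). The 1 called lower was Gata2, a factor of progenitors, mast cells and endothelium (-3.50, adjusted p = 0.00335). Genes named here beyond the 4 most abundant of their list were chosen after their values were seen.

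**Figure D4:**
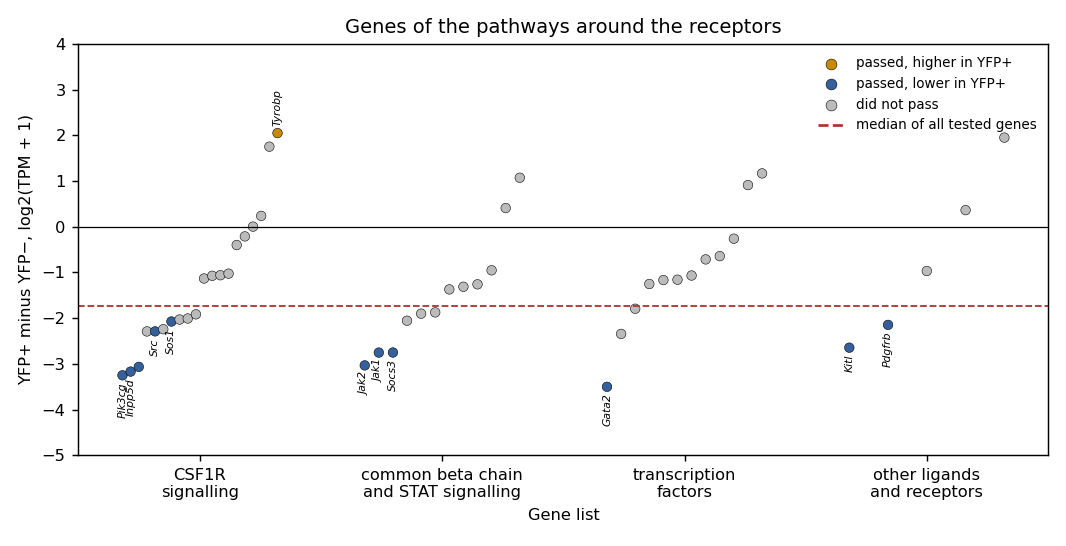
Difference between YFP+ and YFP- libraries for the tested genes of 4 pathway lists, on the log2(TPM + 1) scale and ordered by size within each list. Amber points passed and were higher in YFP+ libraries (Tyrobp alone), blue points passed and were lower, grey points did not pass, and the dashed line is the median of all tested genes, -1.73.

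Across the lists of which 0 genes were called higher, an unadjusted p under 0.05 added Csf3 alone on the higher side. The genes whose profile over the 4 libraries was most like that of a member were taken by the Euclidean distance between centred log2(TPM + 1) profiles, among genes within 1 of its mean on that scale, for members with a mean of at least 10 TPM. For Csf1r these were the chaperone gene Hspa8 (distance 0.25), the lysosomal protease gene Ctsd (0.64) and the globin gene listed as Beta-s (0.77), out of 61 candidates. For Csf2ra they were Rilpl2 (0.30), the stress-response gene Gadd45g (0.34) and the exonuclease gene Trex1 (0.43), and for Csf2rb the lipoprotein receptor gene Lrp1 (0.11), Ifrd1 (0.11) and the peptide transporter gene Tap1 (0.29). For Csf2rb2 they were Gpr137 (0.10), Psen2 (0.18) and Ppan (0.20). For Csf3r they were the sphingomyelinase gene Smpd1 (0.13), the kinase gene Rps6ka1 (0.22) and Picalm (0.33), and for Csf1 the lipoxygenase gene Alox15 (0.15), the lectin receptor gene Clec5a (0.15) and Ptafr (0.19), the receptor of platelet-activating factor. With 4 libraries, many genes share such a profile.

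Rescaling changed which members passed. Under quantile normalization 0 of 9 were called lower and 0 higher, beside 1.67% and 1.21% of all tested genes. At an unadjusted p under 0.05 the counts were 4 lower and 2 higher, with no share over all genes taken at that level. Under median-ratio scaling 1 was called lower, Kit, and 3 higher, Csf2ra, Csf2rb and Csf2rb2, beside 5.91% and 5.62% of all tested genes. Under cyclic loess 0 were called lower and 0 higher, beside 0.327% and 0.531%. Here too 4 were lower and 2 higher at an unadjusted p under 0.05, again with no share taken. In FPKM Csf2ra was called higher and Csf1, Csf3r, Flt3 and Kit lower, beside 115 genes higher and 3461 lower of 11242 tested. Il34 was not tested in FPKM. The direction of Csf2ra, upward, and those of Csf1, Il34, Csf3r, Flt3 and Kit, downward, held under each alternative in which they were tested. The groups of these genes do not overlap in TPM, so only FPKM and the rescalings could have turned a direction.

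**Figure D5:**
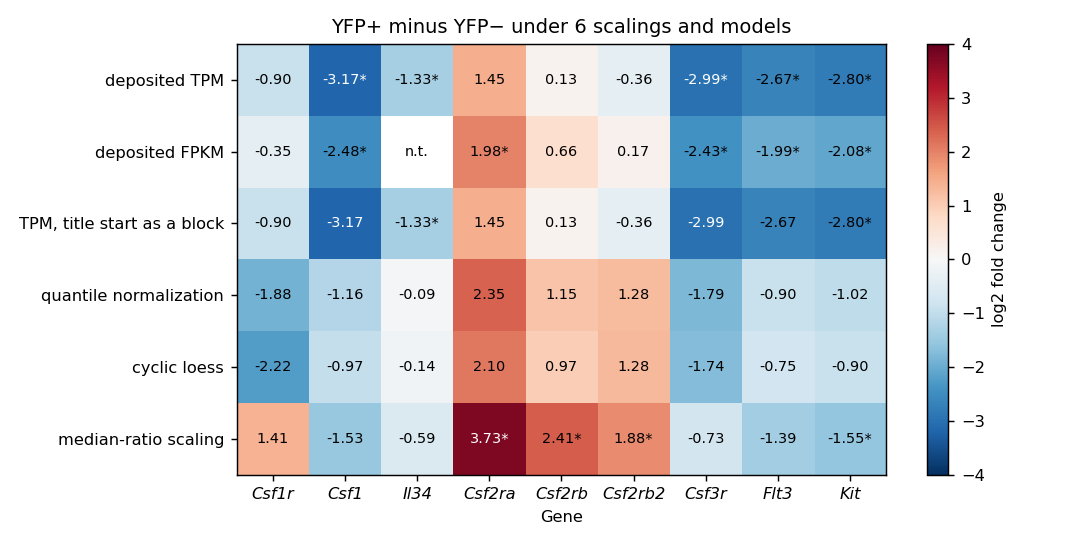
Log2 fold change (YFP+ minus YFP-) of the 9 genes on the deposited TPM, on FPKM, with the title start as a block, and after 3 rescalings, with an asterisk where limma's adjusted p is under 0.05 and n.t. where a gene was not tested. Csf2ra is positive and Csf1, Csf3r, Flt3 and Kit are negative in each setting shown, while Csf1r, Csf2rb2 and the calls change with the scaling.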

How the data were processed

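RNA of 2 YFP+ and 2 YFP- libraries was analysed, grouped by the genotype label. Per the file headers the authors deposited mean read coverage (a signal), FPKM and TPM per gene. The submitters' processing notes name HISAT, GRCm38 and mm10. Versions, and the program behind the tables, were not given in the sources used. Rows of one name were summed (166 of 23337 names). Coverage over FPKM served as depth, since depth in reads is unknown and no counting interval could be given. Genes reaching 1 TPM in 2 or more libraries were tested as log2(TPM + 1), a scale that understates changes of low genes, with limma 3.58.1 in R 4.3.3 (mean trend, Benjamini-Hochberg over 12251 genes, threshold 0.05). The test was tried on simulated data, with changes planted in abundant genes only and no shift of all genes. Low genes such as Csf1, Il34, Flt3 and Kit were thus not covered. The prior degrees of freedom were infinite, so each p-value rests on the trend over all genes. Alternatives were a pseudocount of 0.1, no filter, 5 TPM, quantile, median-ratio and loess scaling, FPKM, no trend, the title start as a block, single-row genes and each library left out. Same-start libraries did not deviate together (correlation across genes -0.01). Members and lists were chosen with earlier results of these data known. By rule, named genes are the 9 members, up to 4 most abundant genes per list and 3 most alike genes per member. Further list genes were named after their values were seen, and some list genes are not reported here. Promoters came from RefSeq (GRCm38.p6), with the windows of 6 members used and Csf1r left out by choice, and transcripts from GENCODE M21. Other tools were SciPy 1.17.1, Biopython 1.88, matplotlib 3.10.9, NumPy 2.4.6 and pandas 2.3.3 under Python 3.11.15.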

Additional observations from a re-analysis of the deposited data

Results flagged for a closer look

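Csf2rb moved in opposite directions in the 2 title starts, by 1.16 (YFP+ minus YFP-, log2(TPM + 1)) between the M libraries and by -0.91 between the FM libraries. Csf2rb2 did the same, by 0.42 between the M and by -1.14 between the FM libraries. Each start holds 1 library per group, so the difference between the starts was not tested.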

How the results depend on the processing

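On the deposited TPM 4834 genes were called lower and 64 higher in YFP+ libraries. The lower count was 3078 with a pseudocount of 0.1, 2902 with a filter at 5 TPM, 205 under quantile normalization, 724 under median-ratio scaling, 40 under cyclic loess and 1726 with the title start as a replicate block. The higher count was 148 under quantile normalization, 688 under median-ratio scaling, 115 in FPKM and 23 with the replicate block. Leaving out each library gave 24 to 8280 lower and 12 to 71 higher genes, and the lone library left in a group is assumed to vary like the other group. Of the 9 members, the number called lower (5) was 3 with a filter at 5 TPM, where Il34 and Flt3 were not tested. It was 0 under quantile normalization and loess, 1 under median-ratio scaling and 2 with the replicate block. The number called higher (0) was 3 under median-ratio scaling and 1 in FPKM. Csf1r (-0.90) was -1.88 under quantile normalization and -2.22 under loess, turned to 1.41 under median-ratio scaling, and ranged from -1.31 to -0.48 with a library left out, passing without the YFP- M library. Csf2rb (0.13) turned to -0.02 without the YFP+ M and -0.76 without the YFP- M library, within a range of -0.76 to 1.01 with a library left out. Csf2rb2 (-0.36) turned to 1.28 under quantile normalization, 1.88 under median-ratio scaling, 1.28 under loess, 0.17 in FPKM and 0.12 without the YFP- FM library, within a range of -0.84 to 0.12. The log2 ratio of Csf1 to Csf1r with a pseudocount of 1 (-2.28) was -3.15 with 0.1 and -3.33 on coverage. The other 3 ratios moved by less than their spread. The causes were not tested. Few reads lie behind Csf1, Il34, Flt3 and Kit in the YFP+ FM library, where their mean read coverage lay between 0.163 and 0.688. In the YFP- FM library, of like depth (2.59 against 2.60 at 1 FPKM), it lay between 2.10 and 24.3. Same-start libraries did not deviate together, which cannot show whether the starts were pairs by design. The replicate block is therefore given as an alternative only.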

Other observations

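Lists of other cell types were measured too, beside 0.522% of all tested genes called higher and 39.5% called lower. Of 8 astrocyte markers 0 were called higher and 6 lower in YFP+ libraries, with a summed level of 45.1 and 9.99 TPM in YFP+ libraries, against 222 and 214 TPM in YFP- libraries. Of 5 tested oligodendrocyte markers, of 7 listed, 0 were called higher and 3 lower, with 105 and 27.1 TPM in YFP+ libraries, against 739 and 847 TPM in YFP- libraries. Of 8 hepatocyte markers 0 were called higher and 2 lower, with 2100.3 and 1669 TPM in YFP+ libraries, against 2726 and 6221 TPM in YFP- libraries.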
